A study of Danio rerio with 4 samples.

Results

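Some stretches of the zebrafish genome carried few regions of 5-hydroxymethylcytosine (5hmC) in the embryonic heart, and those outside the 5hmC-poor end of chromosome 4 are described here. The members were 1708 of the 110315 regions that were called in both 5hmC captures. They were chosen by the number of such regions per window, a measured value of these captures. Overlapping peaks of both captures were merged, regions with a peak from each were kept, and their midpoints were counted in full windows of 1 Mb. A window with fewer than 30 regions is called poor below. Chromosome 4 from 28 Mb on was left out, which left 1310 windows, of which 85 (6.49%) were poor and 1225 are called the other windows. Since the counts chose the windows, the low counts are no finding, and the scores, widths and sharing come from the same captures and are given as descriptions with no test.

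The captures came from hearts dissected by hand from wild-type embryos (Danio rerio; strain background AB per one label, crosses of AB and TU per another) at 48 hours post fertilisation, with no treatment. Each of the 2 captures, replicates 1 and 2, came from a pool of 40 or more hearts. Uncaptured input DNA formed 2 further libraries, whose values were not analysed here. There was 1 condition, and no label says whether the pools came from separate clutches, so differences between the replicates may be technical. Heart cell types cannot be checked against markers in a list of DNA peaks, and a peak does not say which cells of the heart carried the mark.

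5hmC is made when TET enzymes oxidise 5-methylcytosine, the common methylated base of vertebrate DNA. It is an intermediate on the way to unmethylated cytosine and also a lasting mark, found in many tissues along the bodies of active genes and at enhancers. Constitutive heterochromatin, the compact and repeat-rich part of chromosomes, is known to hold little of it. The genome sequence and genes of the build used for these files were not analysed here, so no region is assigned to a gene or a repeat and no sequence is shown.

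The poor windows formed the low end of a continuous range. Regions per window ran from 5 to 29 in the poor windows, with a median of 21 (quartiles 16 and 25), and from 30 to 249 in the other windows, with a median of 82 (quartiles 59 and 112). Only 6 poor windows held fewer than 10 regions and 36 held fewer than 20. Member regions covered a median of 3.13% of their window, against 13.5% in the other windows. There was no gap in values at the threshold: 9 windows held 28 or 29 regions and 18 held 30 or 31. The median score of peaks in the windows just inside was 79.0 for replicate 1 and 83.9 for replicate 2, and in those just outside 82.7 and 83.8. The score is a value of the authors' peak caller, at least 50 in both lists, on a scale that no source used here states.

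**Figure D1:**
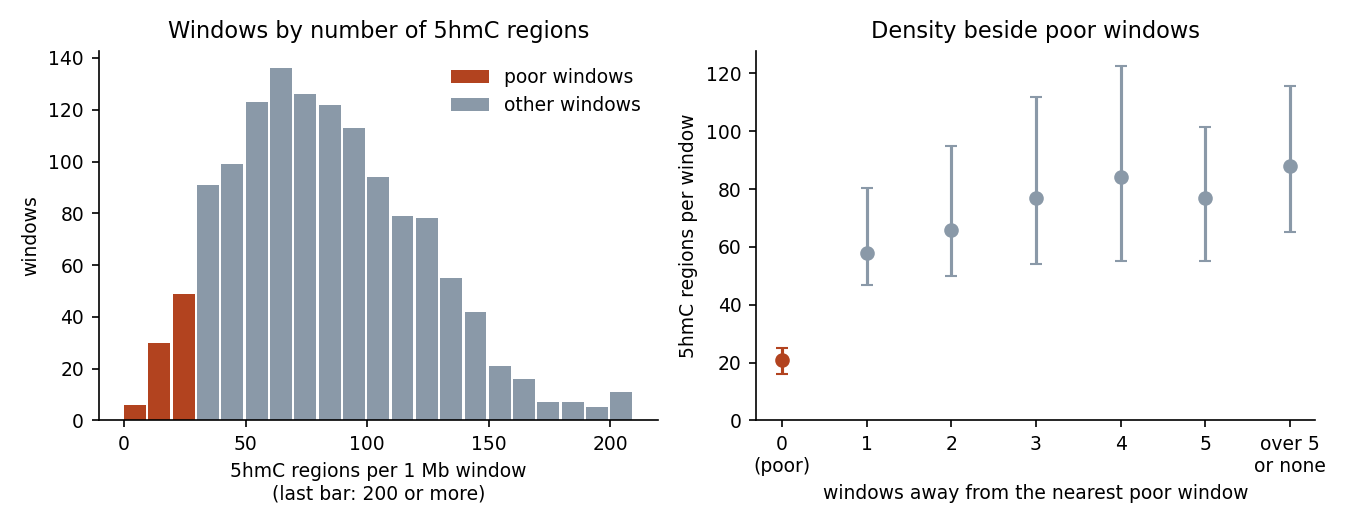
Left: number of 1 Mb windows (vertical axis) by 5hmC regions per window (horizontal axis, bars of 10), poor windows in red and other windows in grey. Right: regions per window by distance in windows from the nearest poor window; points are medians and bars run between quartiles. The poor windows are the left tail of one broad distribution, and the median beside them was 58 regions.

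Windows beside a poor one held fewer regions than windows farther away, over a wide range. The 116 windows directly beside a poor window, which are not poor themselves by construction, had a median of 58 regions (quartiles 46.8 and 80.2). Of these, 22 held 30 to 39 regions, 57 held 60 or more and 13 held 100 or more. The median was 66 at 2 windows, 77 at 3, 84 at 4 and 77 at 5 windows away, so the rise was not steady. It was 88 in the 814 windows more than 5 windows away or on a chromosome with no poor window. Steps could be steep. On chromosome 7 the window from 18 to 19 Mb held 11 regions between neighbours with 134 and 83. On chromosome 18 the window from 31 to 32 Mb held 14 between neighbours with 130 and 51.

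Most poor windows had no poor window beside them. A neighbour just above the threshold also ends a run, and the number of single windows under other thresholds was not computed. The 85 windows made 60 runs of adjacent windows, and 48 of these runs were a single window. The other 12 runs joined 37 windows (43.5% of the poor windows) and 673 members: 5 runs of 2 windows, 3 of 3, 2 of 4 and 2 of 5. Windows with fewer than 20 regions made up 20 of the 37 windows in longer runs and 16 of the 48 single ones.

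Of the runs, 2 had 5 windows and 2 had 4, and the tie of 3 runs of 3 windows was ordered by the fewest regions per window. Chromosome 3 opened with one, since its first 5 windows held 24, 15, 16, 12 and 19 regions, followed by a window with 52. Chromosome 14 had a run of the same length from 9 to 14 Mb, with 26, 17, 16, 13 and 23 regions between neighbours with 68 and 57. On chromosome 22 the windows from 6 to 10 Mb held 17, 28, 8 and 6 regions, and the next window held 78. Chromosome 12 had 28, 18, 16 and 28 regions from 13 to 17 Mb. The run of chromosome 1 from 56 to 59 Mb, which lay near the end of that chromosome, held 19, 13 and 5 regions, so its lowest window was the last. The runs tied with it were chromosome 22 from 28 to 31 Mb, with 5, 12 and 26 regions, and chromosome 7 from 1 to 4 Mb, with 23, 14 and 8. Chromosome 22 thus had a pair of the 7 runs of 3 or more windows. Peak numbers of each capture are given for the first 5 of these runs as a description, since the rule favours low numbers in both. The other windows had a median of 110 peaks of replicate 1 and 109 of replicate 2 per window. Replicate 1 had 123 peaks and replicate 2 had 151 in the chromosome 3 run, 153 and 168 in that of chromosome 14, 92 and 105 in that of chromosome 22 from 6 to 10 Mb, 127 and 166 in that of chromosome 12, and 62 and 66 in that of chromosome 1.

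Poor windows were spread over 22 of the 25 chromosomes but unevenly. Chromosome 22 had the highest share, with 10 of its 42 windows poor (23.8%) and 171 members. It was followed by chromosome 14 with 8 of 53 (15.1%), chromosome 12 with 7 of 50 (14.0%), chromosome 3 with 7 of 63 (11.1%) and chromosome 7 with 8 of 77 (10.4%). Chromosomes 13, 16 and 21 had none, and 6 chromosomes had 1 each. The rest of chromosome 22 was not sparse: its other windows had a median of 96.5 regions, above the median of 82 over all other windows. Leaving out poor windows raises the median most where they are frequent. With its poor windows counted, the median of chromosome 22 was 79. Chromosome 23, with 3 of 46 windows poor, had a median of 102 in its other windows. On chromosome 4 before 28 Mb, 1 window of 28 was poor, from 25 to 26 Mb with 19 regions, while the other windows there had a median of 125.

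**Figure D2:**
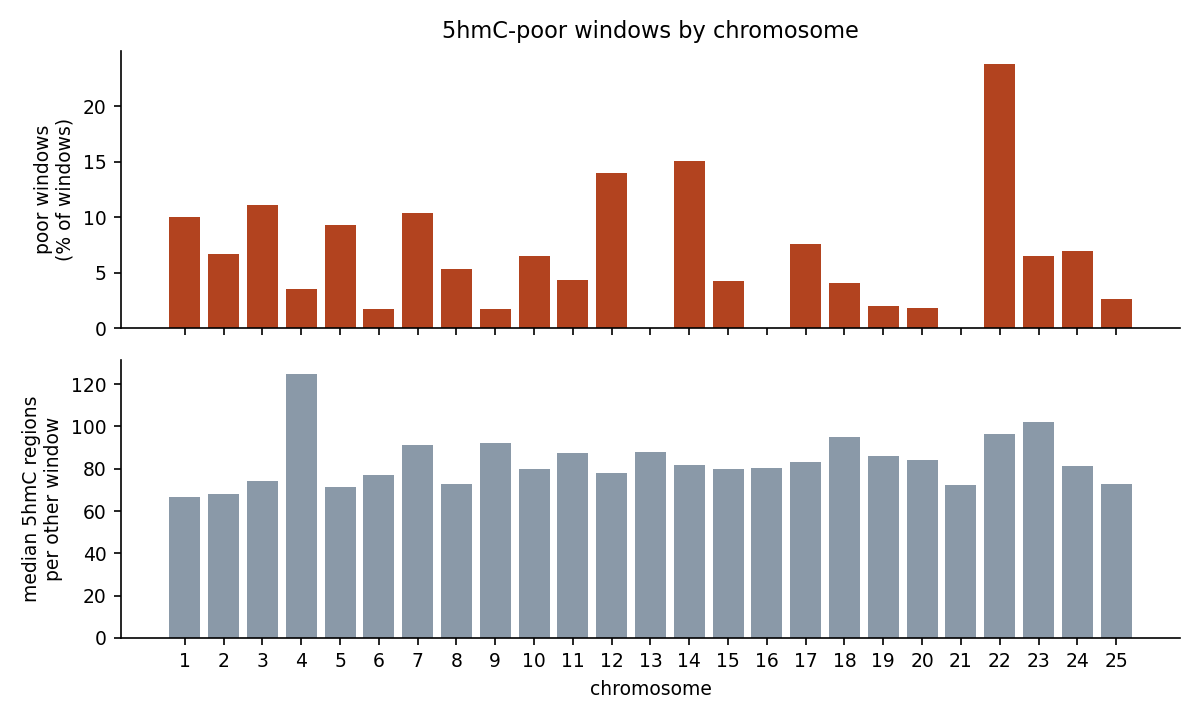
Top: share of the 1 Mb windows of each chromosome that were poor (percent). Bottom: median number of 5hmC regions in the other windows of the same chromosome. Chromosome 22 had the highest share of poor windows, 23.8%, and a median of 96.5 regions in its other windows; chromosome 4 is plotted without the part from 28 Mb on.

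Along the chromosomes, poor windows were most frequent between 20 and 40% of the length and least frequent in the middle. Of the windows in the first 20% of the span, 22 of 270 (8.15%) were poor. From 20 to 40% there were 29 of 273 (10.6%), from 40 to 60% 8 of 259 (3.09%), from 60 to 80% 13 of 263 (4.94%), and in the remainder 13 of 245 (5.31%). Adjacent windows of a run were counted separately. The part from 20 to 40% held all 4 windows of the chromosome 12 run from 13 to 17 Mb and several poor windows of chromosome 14. The spans end at the last peak of either list, and position 0 is the start of the assembled chromosome, with no relation to its centromere known here. Near the ends the share was close to that elsewhere: 6 of 98 windows within 2 Mb of an end were poor (6.12%), against 79 of 1212 further in (6.52%).

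The 10 poorest windows lay on 5 chromosomes, and chromosome 22 held 4 of them. Lowest, with 5 regions each, were chromosome 1 from 58 to 59 Mb, chromosome 8 from 40 to 41 Mb and chromosome 22 from 28 to 29 Mb. Replicate 1 had 8, 8 and 5 peaks in these windows and replicate 2 had 15, 7 and 11. Next came chromosome 22 from 9 to 10 Mb with 6 regions (10 peaks in each list) and from 8 to 9 Mb with 8 regions (11 and 17 peaks). Chromosome 7 had 8 regions from 3 to 4 Mb (14 and 17 peaks), 10 from 5 to 6 Mb (18 and 30 peaks) and 11 from 18 to 19 Mb (15 and 22 peaks). The last of the 10 were chromosome 3 from 3 to 4 Mb (16 and 24 peaks) and chromosome 22 from 29 to 30 Mb (22 and 23 peaks), with 12 regions each. In 8 of these 10 windows replicate 2 had more peaks than replicate 1.

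Poor windows often had a long stretch free of peaks of both captures. A low number of regions favours longer gaps, emptier bins and a low density outside the longest gap. The values that follow therefore describe how the regions lay and are no result apart from the count. The longest peak-free stretch took a median of 13.8% of a poor window (62.2 to 375.4 kb), against 5.81% of the other windows (9.85 to 346.0 kb). A stretch of 100 kb or more was present in 60 of the 85 poor windows (70.6%), against 170 of the 1225 other windows (13.9%). Stretches of 200 kb or more were present in 15 poor and 10 other windows, and stretches of 300 kb or more in 5 and 1. With the longest stretch taken out of each window, the density in the rest was a median of 24.5 regions per Mb in the poor windows, against 87.0 in the other windows. The fullest 100 kb of a poor window held a median of 6 regions, against 18 in the other windows. A median of 3 of the 10 bins of 100 kb in a poor window held no region, against 0 in the other windows.

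Followed past the window edges, 20 peak-free stretches of 200 kb or more met a poor window, and 6 of them met the poor windows of chromosome 22. The longest was on chromosome 22 at 28697310 to 29095697 (398.4 kb), across the border of a pair of poor windows. It was followed by chromosome 7 at 18220357 to 18595731 (375.4 kb), chromosome 1 at 58341502 to 58680349 (338.8 kb) and chromosome 10 at 25282842 to 25620449 (337.6 kb). The windows that held these stretches differed in density: the one of chromosome 10 had 21 regions and that of chromosome 1 had 5. The absence of peaks does not show the absence of 5hmC, because read depth is not in the files, and unassembled or repeated sequence was not examined.

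**Figure D3:**
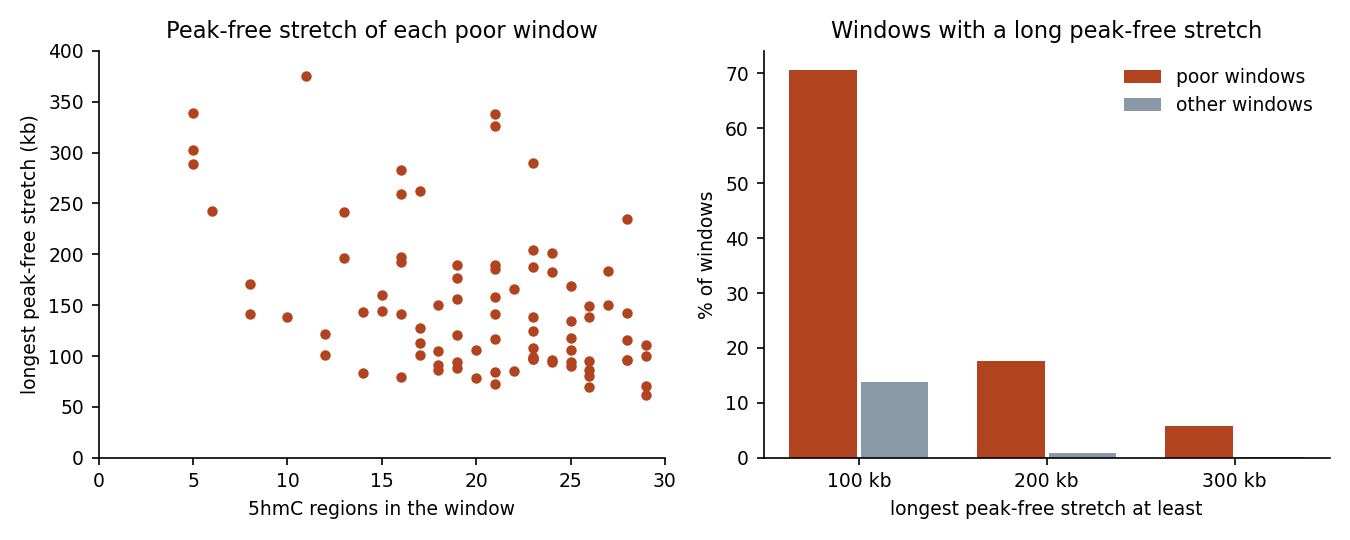
Left: length in kb of the longest stretch without a peak in either list (vertical axis) against the number of 5hmC regions (horizontal axis), 1 point per poor window. Right: percent of poor (red) and other (grey) windows with a stretch of at least 100, 200 or 300 kb. Poor windows had such stretches more often, 70.6% against 13.9% at 100 kb. A low number of regions favours longer gaps, and how much of the difference this gives was not tested. Among windows with 21 regions, 2 had stretches above 300 kb.

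Regions in the poor windows scored lower and were slightly narrower than regions of the other windows. The median score of members was 92.8 (quartiles 67.9 and 135.5) for replicate 1 and 98.2 (71.0 and 150.0) for replicate 2. Regions of the other windows had 124.8 (82.2 and 201.2) and 131.9 (85.3 and 215.7). The ratio of the medians was 0.743 in replicate 1 and 0.744 in replicate 2. Over all peaks, shared or not, it was 0.769 and 0.743. Median region width was 1282 bp in the poor windows and 1435 bp in the other windows, a ratio of 0.893. The quartiles overlapped for both measures, so a single member could not be told from other regions by its score or width. Of the members, 96.7% were made of 1 peak in each list, against 94.7% of the regions of the other windows.

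The difference in score had the same direction on every chromosome that had poor windows, but its size varied. Each of these 22 chromosomes had at least 20 peaks in its poor windows in both lists. On all 22 the median score was lower in the poor windows than in the other windows of the same chromosome, in both replicates. The ratio ran from 0.689 to 0.857 in replicate 1 and from 0.644 to 0.998 in replicate 2. The value nearest to 1, almost no difference, was that of chromosome 6, which had a single poor window with 35 peaks of replicate 2. Chromosomes 4, 9, 19, 20 and 25 also had a single poor window each. Peak width was lower in the poor windows on 20 of 22 chromosomes in each replicate.

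Score and sharing rose from class to class of density, and the poor windows lay at the low end of both. Windows were put in classes of under 30, 30 to 59, 60 to 89, 90 to 119 and 120 or more regions. Over these classes, 65.4, 70.3, 76.5, 80.7 and 84.8% of replicate 1 peaks were found in both lists. For replicate 2 the values were 58.2, 68.8, 74.8, 79.1 and 84.1%. The step out of the poor class was the largest in replicate 2, while in replicate 1 the next step was larger. Since the classes count regions found in both lists, they favour this rise, and the sharing values are a description only. Peaks found in both lists had median scores of 92.2, 104.0, 114.2, 124.1 and 142.1 in replicate 1 over these classes, and 97.9, 110.2, 121.3, 133.7 and 149.3 in replicate 2. Median scores of peaks found in 1 list alone differed far less between classes. They were 66.4, 66.7, 67.3, 68.2 and 68.9 in replicate 1 and 66.4, 67.9, 69.3, 70.0 and 70.7 in replicate 2. Strong peaks were rarely unshared, which narrows the range of unshared scores. In the other windows, replicate 1 quartiles were 57.3 and 86.1 for unshared peaks, against 81.0 and 198.7 for shared ones. How much of the contrast this gives was not tested. Median region width was 1282, 1320, 1389, 1458 and 1508 bp.

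**Figure D4:**
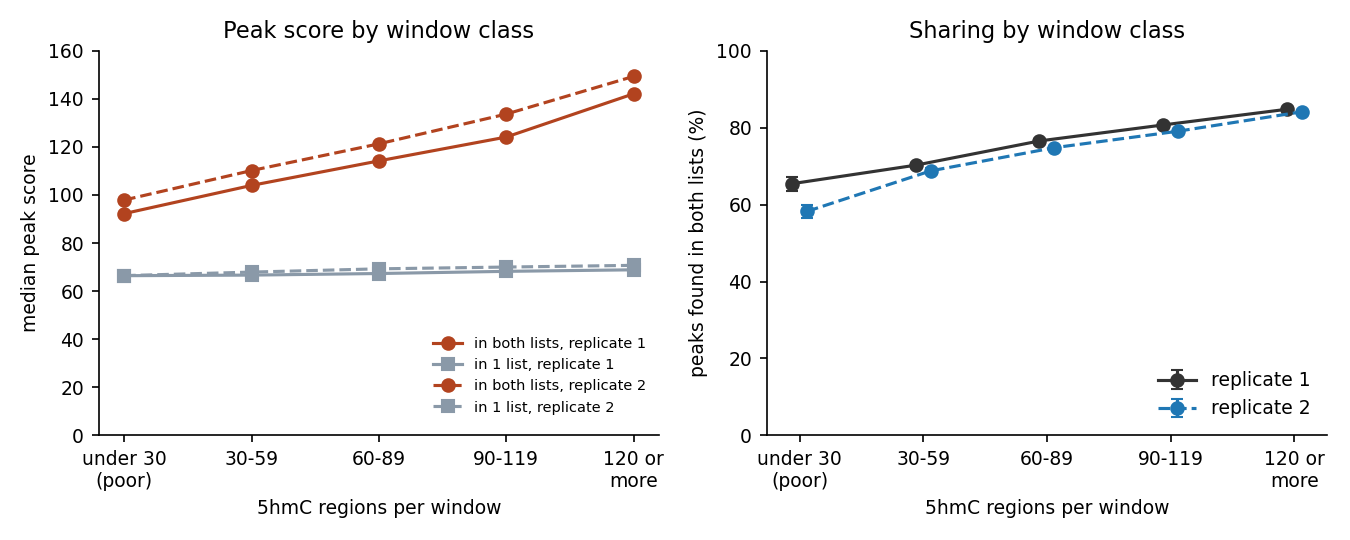
Left: median peak score by class of window, for peaks found in both lists (red circles) and in 1 list alone (grey squares), replicate 1 solid and replicate 2 dashed. Right: percent of peaks found in both lists with Wilson 95% intervals. The classes count regions found in both lists, which favours a rise in this percent. Scores of shared peaks rose over the classes from 92.2 to 142.1 in replicate 1, while those of unshared peaks stayed between 66.4 and 70.7 in both lists. Strong peaks were rarely unshared, which narrows the range of unshared scores.

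Fewer of the peaks in poor windows were found in both captures, and the choice of windows by shared regions favours this. In replicate 1, 1753 of 2679 peaks in poor windows (65.4%, Wilson 95% interval 63.6 to 67.2%) were shared, meaning that they overlapped replicate 2 by at least 1 bp, against 79.3% in the other windows (79.1 to 79.5%). In replicate 2, 1729 of 2969 peaks (58.2%, 56.5 to 59.997%) did, against 77.9% (77.7 to 78.1%). These intervals reflect counting error alone and assume independent peaks. Per window, the share of replicate 1 peaks that were shared ran from 43.2 to 100% in the poor windows (median 65.9%), and from 49.4 to 94.3% in the other windows (median 78.5%). Sharing was lower in the poor windows on all 22 chromosomes in both lists.

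Shared and unshared peaks are given apart here, because the rule fixes a low number of shared peaks and sets none for unshared ones. The choice therefore favours a contrast between them, and how much of it the choice gives was not tested. A poor window held on average 20.6 shared and 10.9 unshared peaks of replicate 1, against 91.1 and 23.8 in the other windows. These averages were lower in the poor windows by factors of 4.42 and 2.19. For replicate 2 the averages were 20.3 and 14.6 in the poor windows, against 89.5 and 25.4 in the other windows, with factors of 4.40 and 1.74.

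Sharing within bins of equal score is given as a description, since windows chosen for few shared regions would show less sharing at any score. Each list was cut into score deciles, and 17.2% of the replicate 1 peaks in poor windows fell in the lowest decile, against 9.86% of those in the other windows. The highest decile held 1.98% against 10.1%. Peaks of the other windows, weighted to the deciles of the poor windows, would be shared at 71.5% in replicate 1 and 69.3% in replicate 2, above the observed 65.4% and 58.2%. Within the lowest decile, sharing was 45.6% in poor windows against 49.1% in replicate 1, and 29.3% against 45.7% in replicate 2. The difference varied between deciles. In the fifth decile sharing was 76.3% against 78.9%, and 69.0% against 76.9%. In the sixth it was 76.6% against 86.0%, and 68.1% against 84.3%. In the eighth it was 96.1% against 96.5%, and 89.9% against 95.8%. In the highest decile all 53 replicate 1 peaks and all 79 replicate 2 peaks of the poor windows were shared, against 99.9% in the other windows in both lists. Peaks within a decile still differ in the density around them, and a dense window gives more overlap by position alone, which was not tested.

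**Figure D5:**
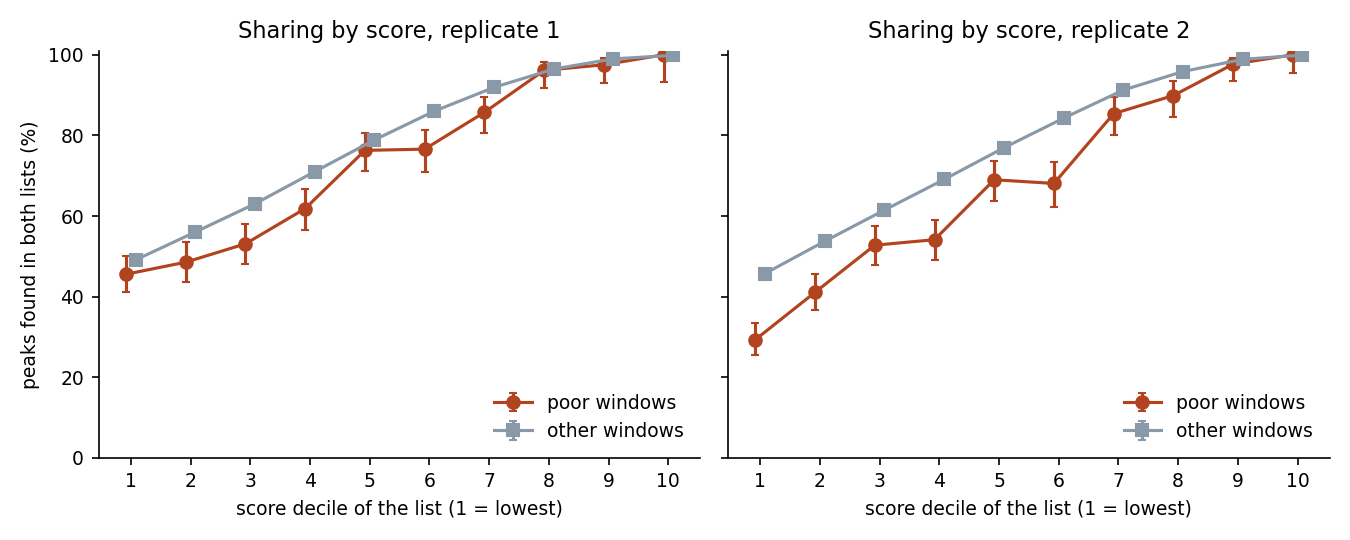
Percent of peaks found in both lists (vertical axis) by score decile of the list (horizontal axis), for poor windows (red circles) and other windows (grey squares), with Wilson 95% intervals; replicate 1 left, replicate 2 right. The poor windows lay below the other windows in deciles 1 to 9 of both lists, and both groups met near 100% in the highest. Over deciles 1 to 9 the difference ran from -9.94 to -0.330 points in replicate 1 and from -16.4 to -1.20 points in replicate 2. The choice of windows by shared regions favours this.

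The captures ranked the poor windows similarly but did not fill them equally. Replicate 2 had more peaks than replicate 1 in 54 of the 85 poor windows, fewer in 23 and the same number in 8, and 10.8% more peaks in all. In the other windows it had more in 600 of 1225 and the totals differed by 0.0632%. Across windows, the peak numbers of both lists had a Spearman's rho of 0.80 for the poor windows and 0.97 for the other windows, with the range cut short by the choice in the poor ones. The most unequal window was chromosome 22 from 28 to 29 Mb, with 5 peaks in replicate 1 and 11 in replicate 2. In the other direction, chromosome 14 from 10 to 11 Mb had 31 and 21 peaks.

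Some of the unshared peaks of poor windows stood in rows. No count of such rows is given for the other windows, so they are not called particular to the poor ones. The longest was the row of 9 peaks of replicate 2 at 12830768 to 12883468 on chromosome 24, and it lay in a poor window with 25 regions, 38 peaks of replicate 1 and 53 of replicate 2. Replicate 1 had 7 peaks in a row at 13654656 to 13748351 on chromosome 17, with scores from 54.0 to 93.0 and no peak of replicate 2 between them. The highest unshared score in any poor window was 241.3, for a replicate 2 peak at 51767868 to 51769445 on chromosome 2.

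Windows can also be chosen on 1 capture and described in the other. The 85 windows with the fewest replicate 1 peaks (44 or fewer) had a median of 35 replicate 2 peaks, against 109 in the remaining windows. All 85 were below that median, and 84 were below the 5th percentile of the remaining windows (56 peaks). The median replicate 2 score was 81.5 in the chosen windows and 109.0 in the remaining ones, a ratio of 0.748. The 85 windows with the fewest replicate 2 peaks (45 or fewer) had a median of 32 replicate 1 peaks, against 110 in the remaining windows. All 85 were below that median, and 81 were below the 5th percentile of the remaining windows (54 peaks). Their median replicate 1 score was 80.7, against 104.4, a ratio of 0.774. Of the windows chosen on replicate 1 and on replicate 2, 79 and 72 were also poor by the rule on regions found in both captures. In windows chosen this way, the low density and the lower score were present in the capture not used for that choice. Most of these windows are the poor windows, which the rule took from both captures, so the values are a description and no independent support.

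Strong regions were scarce among the members but not missing. Ranked by their mean score rank over both lists among all 110315 regions, 39 members (2.28%) were in the strongest 10%, against 10.1% of the regions of the other windows, and 314 (18.4%) were in the weakest 10%, against 9.88%. The strongest 1000 regions included 979 of the 107101 regions of the other windows and 1 of the 1708 members. Members made up 1.55% of all regions. The member among the strongest 1000 lay on chromosome 1 at 57659041 to 57664378, in a window of 13 regions within the run described above. It had scores of 646.1 in replicate 1 and 914.1 in replicate 2 and a width of 5338 bp. It was place 912 of all regions.

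The next strongest were single peaks in both lists. Chromosome 12 at 42643476 to 42645269 scored 585.3 in replicate 1 and 715.4 in replicate 2, and chromosome 2 at 58070284 to 58071599 scored 543.0 and 668.2. Chromosome 11 at 15139819 to 15143589 scored 621.3 and 530.3, and its nearest neighbour was 13736 bp away. Chromosome 10 at 25171443 to 25173423 scored 450.0 and 613.3, in the window with the peak-free stretch of 337.6 kb. Chromosome 5 held 3 of the 10 strongest members, of which 44529967 to 44532683 (738.1 and 403.0) and 44473311 to 44476501 (550.2 and 420.0) lay 53.5 kb apart in a window of 16 regions. The remaining 3 were at 63555876 to 63560115 on chromosome 5, 25065516 to 25068103 on chromosome 22 and 51692243 to 51695203 on chromosome 2, with scores from 364.6 to 623.5.

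Wide members were few. Only 9 members (0.527%) were wider than 5 kb, against 1.20% of the regions of the other windows. The widest, on chromosome 7 at 71194208 to 71206937 (12730 bp), was 2 peaks in replicate 1 with a highest score of 321.0 and 1 peak in replicate 2 with 792.5. All other members of the 10 widest were 6553 bp wide or less. On chromosome 3, the region at 2074385 to 2080556 scored 55.4 in replicate 1 and 318.9 in replicate 2. Replicate 2 scored higher in 9 of the 10 widest, the exception being chromosome 8 at 47981142 to 47987422 (335.4 and 195.8). Replicate 2 also had the higher median region score over all members (98.2 against 92.8) and in the other windows (131.9 against 124.8). No such count is given for wide regions of the other windows, so whether this is particular to wide members was not tested. Over all members, Spearman's rho of the scores of both lists was 0.51, against 0.67 over the regions of the other windows. These are correlations across regions, which are not independent replicates. Member scores spanned a narrower range (replicate 1 quartiles 67.9 and 135.5, against 82.2 and 201.2), which by itself can lower rho. The chromosome 8 region at 40198122 to 40203055 (132.5 and 311.7) was the edge of a peak-free stretch of 289.0 kb in one of the 3 poorest windows.

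Members had more distant neighbours, which the choice of windows with few regions favours. The median distance to the nearest region was 9252 bp for members (quartiles 2484 and 26169 bp) and 1789 bp for the regions of the other windows (730 and 4585 bp). A distance of over 20 kb was found for 553 members (32.4%), against 3.85%. A neighbour within 5 kb was found for 630 members (36.9%), against 77.0% in the other windows.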

How the data were processed

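Sheared heart DNA was given an azido glucose on its 5hmC, then biotin by click chemistry, and bound to streptavidin beads before 12 cycles of PCR, per the labels' protocols. The aligner was BWA, per the labels' protocols, and the build danRer7, per the submitters' processing notes. Peak names carry the name of MACS; its version, settings and any use of the input as control are not stated by them. The deposited lists hold a start, an end and a score for each of 145501 peaks (replicate 1) and 145893 peaks (replicate 2). The scale of the deposited score is not stated, so score ratios may not be ratios of 5hmC. Depth behind a peak is unknown; the labels state about 30M reads per library.

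Peaks were merged and counted with scripts (Python 3.11.15, scipy 1.17.1, pandas 2.3.3, numpy 2.4.6, plots with matplotlib 3.10.9). Region and window counts, and the longest gap of 1 window, were tested on simulated lists. Each simulated shared region had 1 peak in each list, so the merging of more peaks was not tested. Full windows ended at or before the last peak end of their chromosome. Peaks and regions were assigned by midpoint, and a region took the highest score of its peaks in each list. Coordinates count from 1. Named were the 5 longest runs, the 10 poorest windows, and the 10 strongest and 10 widest members; unequal windows, rows of unshared peaks, long peak-free stretches and steep steps were picked after their values were seen. The members and measures were chosen with earlier results of these data known. With 1 condition and 2 captures, no test was made. Genes and base composition were planned only for a danRer7 genome and were not analysed here. Alternatives covered the threshold, window phase and size, score, overlap, joining, covered bases, list length and each list alone.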

Additional observations from a re-analysis of the deposited data

How the results depend on the processing

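Of 102 alternative values under 12 settings, 74 stayed near the reported ones and 28 moved. Near means within 1.5 times for numbers and run lengths and within 1 SD between the lists for other values. No ratio or sharing difference reversed, and the other results could not be labelled so. With windows chosen by covered bases or on 1 list, the number of 85 windows was kept by construction, so it was near in advance. Numbers of windows and members are set by the threshold and window size. Fewer than 20 regions gave 36 windows and 516 members, with a width ratio of 0.925; fewer than 40 gave 176 windows, 4869 members and a longest peak-free stretch of 10.7% of the window. Windows of 0.5 Mb with fewer than 15 regions gave 281 windows, 2563 members, a width ratio of 0.883, score ratios of 0.750 and 0.721, a sharing difference of -18.9 points in replicate 1 and a stretch of 19.0%. Windows of 2 Mb with fewer than 60 gave 19 windows, 742 members and a stretch of 9.84%. For windows of 0.5 and 2 Mb the stretch is a percent of that window size. These values therefore cannot be set beside the 13.8% of windows of 1 Mb, and their move is no change in length. Restriction to peaks scoring above the median of their list, with the threshold scaled to 14.3 regions, gave 206 windows, score ratios of 0.824 and 0.818, a sharing difference of -17.9 points in replicate 1 in place of -13.8, and a stretch of 21.4%. The width ratio was 0.903 with an overlap of 50% of both peaks, 0.880 with peaks within 500 bp joined and 0.857 with windows chosen by covered bases. With 1 list alone and 85 windows kept by construction, members were peaks, 2643 to 2878 of them, the width ratio was 0.888 to 0.906 and the stretch 15.5 to 17.5%; sharing has no value with 1 list. The longest run was 4 to 6 Mb under all settings. No paired analysis was possible because only the captures had values; the inputs that share their numbers were not analysed here.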
